A study of Mus musculus with 26 samples.

Results

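Chemokines are small secreted proteins that direct the movement of leukocytes and other cells, and their genes form a family that in the mouse lies largely in a few tandem clusters. The genes described here were all protein-coding genes of GENCODE release M21 whose symbol is Ccl, Cxcl, Cx3cl or Xcl followed by a number, with a closing letter allowed. The rule took 37 of 21951 protein-coding genes, of which 23 were CC, 12 were CXC and 2 were CX3C or XC chemokine genes. The rule reads gene names alone. The rule does not take Cxcl11, which the annotation lists as a polymorphic pseudogene, nor Pf4 and Ppbp, whose products are CXC chemokines under other symbols.

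The series asked what the RNA binding region (RBR) of ATRX, a chromatin remodeler of the SNF2 family, contributes to where the protein sits and to gene silencing by Polycomb repressive complex PRC2. All cells were female mouse embryonic fibroblasts (MEFs). The states compared were unmodified cells (WT), a CRISPR/Cas9 clone in which the RBR, encoded in exon 9 of the endogenous Atrx gene, is deleted (ATRXΔRBR), and cells that received an shRNA against Atrx and were selected with puromycin (ATRX KD). RNA-Seq gave 6 libraries, 2 for each state, and CUT&RUN, in which antibody-bound chromatin is cut free and sequenced, gave 16 peak lists, 2 for each state and target. EZH2, the catalytic subunit of PRC2, and H3K27me3, the histone mark that PRC2 deposits, were mapped in all 3 states, and ATRX in the first pair only. ATRXΔRBR is a single clone, so an effect of the deletion and a property of that clone cannot be told apart. The study's methods call the 2 libraries of a state biological replicates, while the labels do not say whether they came from separate cultures, so p-values measure the spread between these libraries.

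The RNA-Seq libraries held 9051693 to 21723647 estimated counts. Atrx itself had 8278 and 5195 estimated counts in WT, 3531 and 4291 in ATRXΔRBR, with 3768 and 11891 in the libraries labelled ATRX KD. Scaled for depth, Atrx RNA was thus 619 and 429 CPM (counts scaled to the library total after TMM adjustment) in WT. It was 420 and 556 CPM in the libraries labelled ATRX KD, which overlapped WT. The label ATRX KD is thus not borne out by the RNA of these 2 libraries, and they are named by their label throughout. The paper assessed the knockdown by western blot of ATRX protein, which RNA-Seq does not measure. The raw files of these 2 libraries were also named differently from those of the other 4, and knockdown and batch cannot be told apart. The fibroblast markers Col1a1 and Vim, a fibrillar collagen chain and an intermediate filament protein, were abundant in every library, while Thy1 and Fap were at 0 in all 6. The 12 fibroblast markers summed to 15800 and 11800 CPM in WT, 20880 and 20640 in ATRXΔRBR, with 16680 and 17800 in the libraries labelled ATRX KD. Of the 9 tested, Fn1, S100a4 and Pdgfrb were called higher and Col3a1 and Dcn lower in the libraries labelled ATRX KD, with a median log2 fold change of 0.03, and S100a4 was called higher and Col3a1 lower in ATRXΔRBR, with a median of 0.40. Col3a1 had 937 and 733 estimated counts in WT and 4 and 12 in the libraries labelled ATRX KD, where Dcn was at 0 in both. The 12 macrophage markers summed to between 23.9 and 36.1 CPM in all 6 libraries, with Adgre1, C1qa, C1qb and Tyrobp at 0 throughout and Ptprc at 0 in 5 libraries. The 8 lymphocyte markers summed to at most 0.165, the 6 endothelial markers to between 8.59 and 13.0 and the 6 epithelial markers to between 0.112 and 1.91 CPM. Among these, the endothelial adhesion molecule Pecam1 had 20 and 21 estimated counts in WT, 51 and 53 in ATRXΔRBR (called higher) and 0 in both libraries labelled ATRX KD (called lower). Cdh1, the epithelial cadherin, had 11 and 10 in WT, with 17 and 24 in ATRXΔRBR, and was called lower at 1 and 2 in the libraries labelled ATRX KD.

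Chemokines signal through G protein-coupled receptors on the responding cell and are held on glycosaminoglycans near the cell that secreted them. In fibroblasts many are inflammatory products under the control of NF-kappaB, such as Ccl2 and Ccl7, which attract monocytes through CCR2, and Cxcl1 and Cxcl5, which attract neutrophils through CXCR2. Cxcl12, the ligand of CXCR4, is in contrast a homeostatic chemokine of stromal cells.

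The RefSeq promoter table of GRCm38.p6, which holds 250 bases before and 50 after each start, matched 27 of the 37 genes. The expressed Ccl2, Ccl7 and Cxcl5 were among those not matched, as were Ccl5 and Cxcl16, so the motif counts do not cover them. The promoters of Cxcl1, Cxcl12 and Cxcl10 are shown because Cxcl1 was the member called in ATRXΔRBR, Cxcl12 carried EZH2 at its start in both WT lists, and Cxcl10 carried an EZH2 peak inside the printed stretch. Each is printed 5′ to 3′ on the strand of its gene, up to the last base before both the RefSeq and the GENCODE start. Capitals mark matches, on either strand, to a kappaB-like motif (GGG, NN, TT, N and CC in a row), an AP-1 motif (TGANTCA), a GC box (GGGCGG) and an interferon-response-like motif (GAAA, NN and GAAA in a row), where N is any base, and a TATA box (TATAAA) was searched as well. Motifs may overlap. The Cxcl1 promoter lies at chr5:90890995-90891240 on the plus strand, that of Cxcl12 at chr6:117168285-117168534 on the plus strand and that of Cxcl10 at chr5:92348890-92349139 on the minus strand.
Cxcl1: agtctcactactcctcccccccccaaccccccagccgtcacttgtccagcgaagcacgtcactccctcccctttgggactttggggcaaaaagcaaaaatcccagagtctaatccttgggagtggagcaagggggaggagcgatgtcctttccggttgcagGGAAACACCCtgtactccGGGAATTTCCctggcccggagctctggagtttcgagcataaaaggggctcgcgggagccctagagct
Cxcl12: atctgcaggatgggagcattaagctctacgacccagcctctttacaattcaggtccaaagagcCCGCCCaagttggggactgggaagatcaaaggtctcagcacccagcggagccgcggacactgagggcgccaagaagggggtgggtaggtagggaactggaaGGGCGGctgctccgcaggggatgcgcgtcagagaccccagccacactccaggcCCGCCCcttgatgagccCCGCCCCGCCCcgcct
Cxcl10: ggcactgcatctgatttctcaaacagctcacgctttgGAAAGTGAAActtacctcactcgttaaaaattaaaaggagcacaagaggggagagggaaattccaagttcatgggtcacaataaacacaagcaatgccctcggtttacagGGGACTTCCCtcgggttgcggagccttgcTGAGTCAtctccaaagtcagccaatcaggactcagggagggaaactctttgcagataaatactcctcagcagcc
The upstream stretch of Cxcl1 held 2 kappaB-like matches and that of Cxcl12 held 5 GC boxes and none of the other motifs. The upstream stretch of Cxcl10 held 1 kappaB-like, 1 AP-1 and 1 interferon-response-like match. In the whole 300-base promoters, the kappaB-like motif was found in 8 of 27 chemokine genes (Ccl19, Ccl20, Ccl9, Cxcl1, Cxcl10, Cxcl2, Cxcl3 and Cxcl9), and in 4.71% of the 27025 genes of the table. The AP-1 motif was in 4 of 27 against 7.93%, the TATA box in 8 of 27 against 14.2%, the GC box in 7 of 27 against 35.9% and the interferon-response-like motif in 3 of 27 against 3.49%. These are matches of letters, and binding at them was not measured.

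Most of the family was silent in these cells. There were 15 members with 0 estimated counts in all 6 libraries, among them the CCR3 ligands Ccl11, Ccl24 and Ccl26, the macrophage inflammatory proteins Ccl3 and Ccl4, the lymphoid chemokines Ccl19, Ccl21a, Ccl21b and Cxcl13, the interferon-induced CXCR3 ligand Cxcl9, and Xcl1. The others of this group were Ccl1, Ccl12, Ccl27b and Ccl6. A further 8 (Ccl20, Ccl22, Ccl27a, Ccl8, Cxcl14, Cxcl15, Cxcl2 and Cxcl3) had at most 5 estimated counts in any library. The remaining 14 passed the filter of more than 10 estimated counts over the 4 libraries in the comparison of ATRXΔRBR with WT, and 13 of them, without Cxcl17, in the comparison of the libraries labelled ATRX KD with WT. A mean of at least 1 TPM (an abundance scaled for library size and transcript length) was reached in at least 1 state by 13 members.

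The whole family summed to 972 and 1147 TPM in WT, 721 and 700 TPM in ATRXΔRBR, and 338 and 308 TPM in the libraries labelled ATRX KD. Cxcl1, Cxcl5, Ccl2, Cxcl12 and Ccl7 made up between 81.9% and 93.3% of this sum in each library. In WT, the order by mean TPM was Cxcl1, Cxcl5, Ccl2, Cxcl12, Ccl7, Cx3cl1, Ccl25 and then Cxcl10, which at 4.91 TPM was well below the others. The WT libraries of Cxcl1 lay on both sides of the Cxcl5 values and those of Cxcl12 on both sides of the Ccl7 values, so the order within these pairs is not resolved. The plot of TPM by library shows the 13 members that reached 1 TPM.

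**Figure D1:**
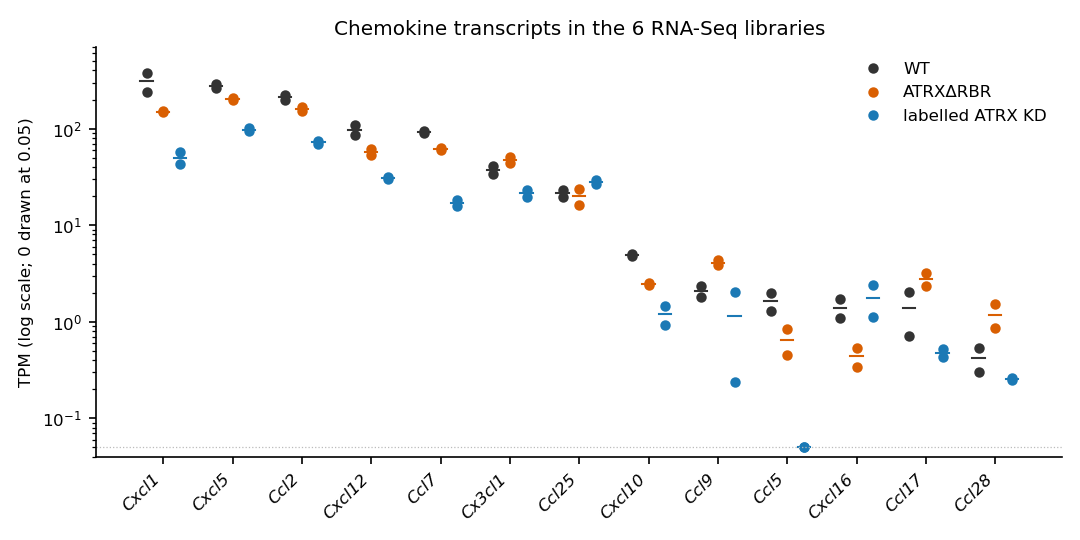
TPM of the 13 chemokine genes with a mean of at least 1 TPM in a state, on a log axis, for WT (black), ATRXΔRBR (orange) and the libraries labelled ATRX KD (blue), with points for the 2 libraries and a dash for their mean. The 5 most abundant genes step down from WT to ATRXΔRBR to the libraries labelled ATRX KD with no overlap between the groups, whereas Ccl25 overlaps between WT and ATRXΔRBR and Cx3cl1 is highest in ATRXΔRBR.

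The neutrophil-attracting ligands of CXCR2 were led by Cxcl1 and Cxcl5, which lie in the same cluster on chromosome 5. Cxcl1 (chr5:90891241-90893115) was measured at 240 and 379 TPM in WT, 152 and 148 TPM in ATRXΔRBR, and 56.8 and 42.9 TPM in the libraries labelled ATRX KD. All 4 values outside WT lay below both WT values, though the WT libraries differed by more than those of any other state. In ATRXΔRBR Cxcl1 was called lower, with a log2 fold change of -1.07 (SE 0.22) and an adjusted p of 0.0257 by edgeR. This call was lost without WT replicate 2, where the log2 fold change was -0.76 with an adjusted p of 0.0741. Cxcl1 was 6.91-fold lower in the libraries labelled ATRX KD, with a log2 fold change of -2.79 (SE 0.22, adjusted p = 0.000341). Cxcl5 (chr5:90759360-90761624) was at 263 and 286 TPM in WT, 207 and 196 TPM in ATRXΔRBR, and 102 and 93.4 TPM in the libraries labelled ATRX KD. The 3 groups of Cxcl5 did not overlap, and the log2 fold change was -0.48 (SE 0.16, adjusted p = 0.13) in ATRXΔRBR and -1.71 (SE 0.12, adjusted p = 0.000198) in the libraries labelled ATRX KD, of which only the latter passed the test. The other members in the cluster, Cxcl2, Cxcl3 and Cxcl15, were not tested, with 0 to 5 estimated counts per library.

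Ppbp and Pf4, CXC chemokine genes between Cxcl5 and Cxcl3, are left out by the symbol rule. Ppbp, the precursor of neutrophil-activating peptide 2, had 736 and 782 estimated counts in WT, 1096 and 1588 in ATRXΔRBR, with 32 and 84 in the libraries labelled ATRX KD. Scaled for depth, it stood at 55.1 and 64.6 CPM in WT and 116 and 114 CPM in ATRXΔRBR, both of the latter above both of the former. It was called higher in ATRXΔRBR (log2 fold change 0.93, SE 0.18, adjusted p = 0.0193) and lower in the libraries labelled ATRX KD (log2 fold change -4.03, SE 0.18, adjusted p = 5.26e-05). Pf4, platelet factor 4, had at most 3 estimated counts in any library.

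The monocyte-attracting ligands of CCR2, Ccl2 and Ccl7, lie next to each other on chromosome 11. Ccl2 (chr11:82035571-82037453) was at 222 and 199 TPM in WT, 152 and 165 TPM in ATRXΔRBR, and 75.1 and 69.8 TPM in the libraries labelled ATRX KD. The groups did not overlap, and the log2 fold change was -0.46 (SE 0.20, adjusted p = 0.238) in ATRXΔRBR, which missed the threshold, and -1.78 (SE 0.15, adjusted p = 0.000463) in the libraries labelled ATRX KD, which passed it. The annotated gene Gm17268 overlaps Ccl2 on the other strand. Ccl7 (chr11:82045712-82047525) was at 90.9 and 94.5 TPM in WT, 59.8 and 63.6 TPM in ATRXΔRBR, and 18.4 and 15.9 TPM in the libraries labelled ATRX KD. Its groups were well apart, with a log2 fold change of -0.64 (SE 0.18, adjusted p = 0.0844) in ATRXΔRBR and a called one of -2.67 (SE 0.17, adjusted p = 0.000156), or 6.37-fold lower, in the libraries labelled ATRX KD. Ccl8, in the same cluster, had 0 to 2 estimated counts per library.

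Cxcl12 (chr6:117168535-117181367), which retains stem cells and lymphocytes in their niches through CXCR4, was at 85.6 and 110 TPM in WT, 61.5 and 52.9 TPM in ATRXΔRBR, and 31.2 and 30.04 TPM in the libraries labelled ATRX KD. The 3 groups did not overlap. Its log2 fold change in ATRXΔRBR was -0.77 (SE 0.19), with an adjusted p of 0.0515 by edgeR and of 0.0143 by DESeq2, so that the call depended on the tool. It was called lower by 3.35-fold in the libraries labelled ATRX KD (log2 fold change -1.74, SE 0.14, adjusted p = 0.000375).

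Cxcl10 (chr5:92346638-92348889), an interferon-induced ligand of CXCR3 that attracts T cells, was low at 4.78 and 5.03 TPM in WT, 2.42 and 2.50 TPM in ATRXΔRBR, and 0.93 and 1.45 TPM in the libraries labelled ATRX KD. The groups did not overlap, although the counts behind them were only 41 and 32, 12 and 19, and 5 and 15. The log2 fold change was -1.12 (SE 0.38, adjusted p = 0.136) in ATRXΔRBR and -2.18 (SE 0.41, adjusted p = 0.00731) in the libraries labelled ATRX KD. Cxcl10 lies within Art3 on the other strand.

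Ccl5 and Ccl9 were hardly expressed. Ccl5 had 7 and 4 estimated counts in WT, 1 and 3 in ATRXΔRBR, and 0 in both libraries labelled ATRX KD. Taking 3 counts per library as the floor, it was at least 1.80-fold lower in the libraries labelled ATRX KD than in WT. Ccl5 was called lower in these libraries (adjusted p = 0.0304 by edgeR), but it passed the filter through its WT counts alone. A call could therefore only be lower, and the p-value is not read as support. Ccl9, a macrophage inflammatory protein of rodents, had 38 and 31 estimated counts in WT, 28 and 48 in ATRXΔRBR, with 10 and 7 in the libraries labelled ATRX KD. It was called lower in the latter (log2 fold change -2.16, SE 0.57, adjusted p = 0.0269), while in ATRXΔRBR the log2 fold change was 0.24 (SE 0.33, adjusted p = 0.745). Without replicate 2 labelled ATRX KD, neither call held, with an adjusted p of 0.119 for Ccl5 and 0.147 for Ccl9. The TPM of Ccl9, at 1.78 and 2.35 in WT and 4.32 and 3.86 in ATRXΔRBR, followed a different course from its counts because the length that RSEM assigned to it differed between libraries, from 1204 to 2969 bases.

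Cx3cl1 (chr8:94772009-94782427), fractalkine, a membrane-anchored chemokine that is shed by ADAM proteases, was at 33.8 and 40.6 TPM in WT, 50.9 and 43.6 TPM in ATRXΔRBR, and 19.8 and 23.4 TPM in the libraries labelled ATRX KD. It was the most abundant member whose values in ATRXΔRBR lay above WT in both libraries, with a log2 fold change of 0.37 (SE 0.17, adjusted p = 0.275) that did not pass the test. It was called lower in the libraries labelled ATRX KD (log2 fold change -0.91, SE 0.14, adjusted p = 0.00345). Ccl25, the CCR9 ligand of thymus and small intestine, was at 19.8 and 23.2 TPM in WT, 23.9 and 16.2 TPM in ATRXΔRBR, and 29.6 and 26.5 TPM in the libraries labelled ATRX KD, and was not called in either comparison (log2 fold changes -0.01, SE 0.25, and 0.22, SE 0.19). Cxcl16, the transmembrane ligand of CXCR6, had 17 and 16 estimated counts in WT, 5 and 6 in ATRXΔRBR, with 12 and 49 in the libraries labelled ATRX KD. Its log2 fold changes were -1.44 (SE 0.51, adjusted p = 0.155) and 0.49 (SE 0.43, adjusted p = 0.419), neither of them called. Ccl17, a CCR4 ligand, Ccl28, a mucosal chemokine, and Cxcl17 had at most 14 estimated counts in any library and were not called, with log2 fold changes in ATRXΔRBR of 0.91, 0.75 and -0.18.

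Counted over the family, 1 of 14 tested members was called lower in ATRXΔRBR (Cxcl1) and 0 higher, where 4.07% of all 16334 genes tested were called lower and 2.79% higher, or 6.85% in either direction. An unadjusted p under 0.05 was reached by 7 of the 14, and DESeq2 called 2, both lower. The reported fit holds no replicate block, and a crossed one, added after the data were seen, called more members, as given below. The median log2 fold change of the 14 was -0.47, against -0.02 over all genes tested. Both ATRXΔRBR libraries lay below both WT libraries in CPM for 8 of 14 members and above them for 4, where this held for 25.1% and 24.4% of all genes tested. In the libraries labelled ATRX KD, 9 of 13 tested members were called lower and 0 higher, where 17.8% of 16785 genes were called lower and 15.2% higher, or 33% in either direction. The members called lower were Cxcl1, Ccl7, Cxcl10, Ccl9, Ccl2, Cxcl12, Cxcl5, Cx3cl1 and Ccl5. Of these, Ccl5 passed the filter through its WT counts alone, so a call could only be lower. The median log2 fold change was -1.78, or -1.74 with Ccl5 set at its bound, against -0.02 over all genes tested. There were 11 of 13 members with both of these libraries below both WT libraries and 2 above, where 33.6% and 36.2% of all genes tested were. Both comparisons used the same WT libraries, so their values are given side by side and no agreement between them is read. In the libraries labelled ATRX KD, 3 of 9 tested fibroblast markers were called higher and 2 lower, and Pecam1 and Cdh1 were called lower, while in ATRXΔRBR Pecam1 was called higher, as given above. The part of these markers in the chemokine counts was not tested. In bulk RNA, fewer cells that express a gene and less RNA per cell cannot be told apart.

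**Figure D2:**
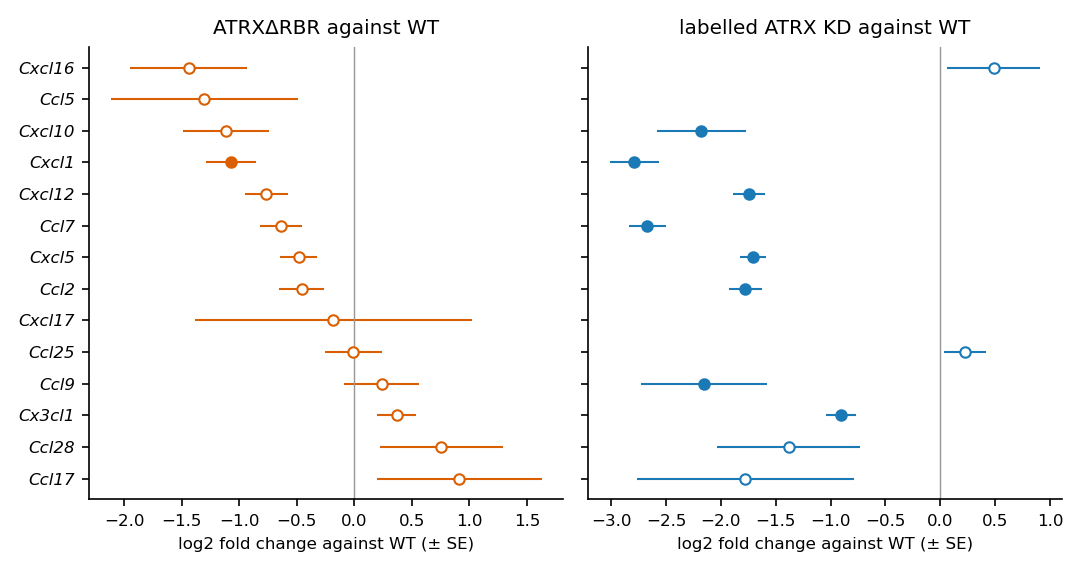
Log2 fold change against WT for the tested chemokine genes, in ATRXΔRBR (left) and in the libraries labelled ATRX KD (right). Bars are the SE, back-calculated from the F statistic of the edgeR test. Filled points are genes called at an adjusted p under 0.05, and gene order is by the left panel. Ccl5 is left out on the right, where it was at 0. Cxcl1 is the only filled point on the left, at -1.07, while 8 points are filled on the right and all of these lie below 0.

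The genes around the chemokines were examined by lists. Of 23 chemokine receptor genes, 5 were tested in ATRXΔRBR, where 0 were called by edgeR or DESeq2 and 0 had an unadjusted p under 0.05, and 6 were tested in the libraries labelled ATRX KD, where Ccr10 was called higher (log2 fold change 2.00, SE 0.63, adjusted p = 0.0475) by edgeR and no receptor by DESeq2. Among 30 NF-kappaB subunits, regulators and targets, 21 were tested in each comparison. In ATRXΔRBR, Ikbkg, the regulatory subunit of the IkappaB kinase, and Tnfaip2 were called higher, and Birc3, an anti-apoptotic ubiquitin ligase, was called lower with a log2 fold change of -3.18 (SE 0.47, adjusted p = 0.00641). These 3 of 21 stand beside 6.85% of all genes called in ATRXΔRBR, and the median log2 fold change of the 21 was 0.02. For the libraries labelled ATRX KD, 10 were called lower and 2 higher, where 17.8% and 15.2% of all genes were, with a median of -0.55. The lowest adjusted p-values there were those of Vcam1, a vascular adhesion molecule (log2 fold change -4.15, SE 0.16), Traf1 (-2.81, SE 0.31), Birc3 (-5.13, SE 0.66), Relb (-1.6, SE 0.21) and Nfkb2 (-0.98, SE 0.12), all lower, and of Ikbkg, which was higher (1.5, SE 0.15).

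Of 16 genes of interferon signalling, 15 were tested in ATRXΔRBR and Ifit3, an interferon-induced antiviral gene, was called lower (log2 fold change -0.89, SE 0.20, adjusted p = 0.0361) by edgeR, and 0 of the 15 by DESeq2. This 1 of 15 is no larger a share than the 6.85% of all genes called. In the libraries labelled ATRX KD all 16 were tested, 3 were called higher and 8 lower by edgeR, or 3 and 4 by DESeq2, with a median of -0.60, where edgeR called 15.2% of all genes higher and 17.8% lower. Here the receptor chain Ifnar1 was among the higher ones (log2 fold change 0.57), and Gbp2, Irf1 and Irf3 were among the lower ones (-1.39, -0.83 and -0.85). Of the 9 tested genes of chemokine processing and presentation, Mmp2, a gelatinase that trims chemokines, was called lower in ATRXΔRBR (log2 fold change -1.07, SE 0.16, adjusted p = 0.00769). In the libraries labelled ATRX KD, Adam10 and Adam17, the proteases that shed Cx3cl1 and Cxcl16, were called higher (log2 fold changes 0.47 and 1.09), as were the heparan sulfate enzymes Ext2 and Ndst1 (0.77 and 0.59), and Ext1 was called lower (-0.76). These 4 higher and 1 lower of 9 are read against the same 15.2% and 17.8%, and the 1 of 9 in ATRXΔRBR against 6.85%.

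Chromatin was read next, as called peaks within 2 kb of each transcription start site (TSS, the outermost annotated start of a gene). The lists do not give the read depth behind them, and its part in the number of peaks was not tested. Of the 37 members, 20 had no ATRX, EZH2 or H3K27me3 peak at the TSS in any of the 16 lists. The 17 others were 45.9% of the family, against 67.2% of all protein-coding genes. With a mean of 1 TPM or more in WT, 9 of 12 members had a peak in at least 1 list (88.9% of such protein-coding genes), and below 1 TPM 8 of 25 had (43.6% of such genes).

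**Figure D3:**
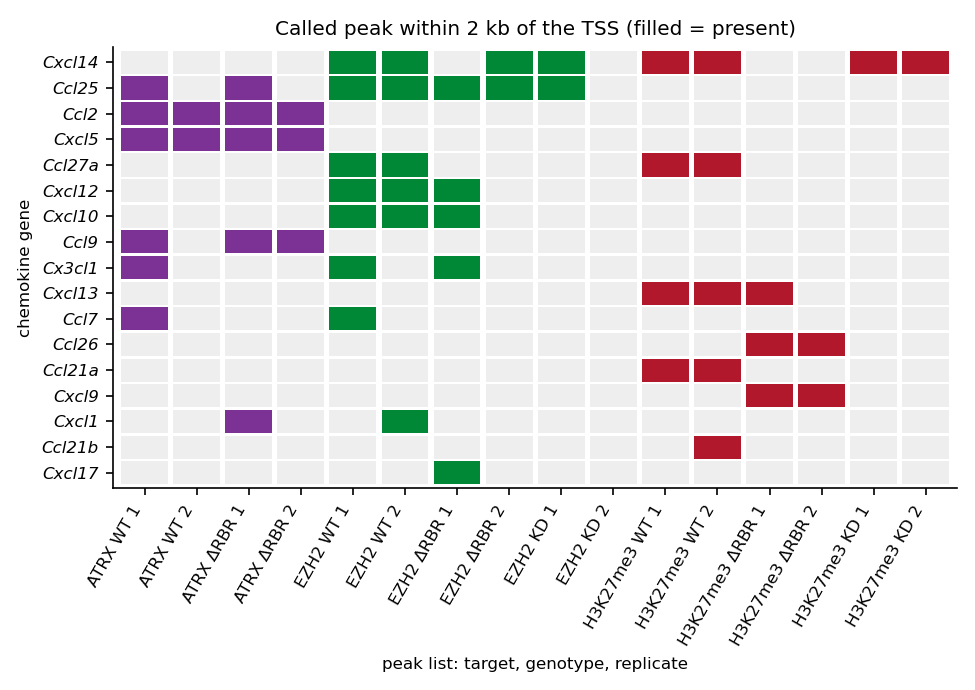
Presence (coloured) or absence (grey) of a called ATRX (purple), EZH2 (green) or H3K27me3 (red) peak within 2 kb of the TSS in each of the 16 peak lists, for the 17 chemokine genes with a peak in at least 1 list. Ccl2 and Cxcl5 have ATRX in all 4 lists, and Cxcl9 and Ccl26 have H3K27me3 in both ATRXΔRBR lists and in none of the other 4.

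ATRX was at the TSS of 6 and 2 members in the WT lists and of 5 and 3 in the ATRXΔRBR lists, where 12.0% and 5.76%, and 13.6% and 4.97%, of protein-coding genes had a peak. Ccl2 and Cxcl5, among the most abundant members, had ATRX in all 4 lists, and Ccl9 in both ATRXΔRBR lists and WT replicate 1. Of the 25 members below 1 TPM in WT, 0 had ATRX at the TSS in any list, where 2.12% and 1.14% of such protein-coding genes had it in WT and 1.84% and 1.03% in ATRXΔRBR, so a count of 0 is not a result about the family. The peaks at Ccl2 lay upstream of or across its TSS, the nearest at -88 and -620 bp from the TSS in WT, and across the TSS and at -620 bp in ATRXΔRBR, with fold enrichments between 3.82 and 4.06. At Cxcl5 all 4 lists had a peak over the last exon, starting between 1112 and 1289 bp after the TSS, with fold enrichments of 5.34 and 6.404 in WT and 6.41 in both ATRXΔRBR lists. In ATRXΔRBR replicate 1 a second peak lay across the Cxcl5 TSS. Cxcl1 had a peak across its TSS in ATRXΔRBR replicate 1, Ccl7 and Cx3cl1 had ATRX in WT replicate 1, and Ccl25 in replicate 1 of both states, within 2 kb of the start of its neighbour Elavl1.

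EZH2 was at the TSS of 7 and 6 members in WT, 5 and 2 in ATRXΔRBR, with 2 and 0 in the lists labelled ATRX KD. Among protein-coding genes these shares were 50.5% and 46.8%, 49.2% and 35.0%, and 19.4% and 24.8%. In all 6 lists the share of chemokine genes was thus below that of protein-coding genes. In WT the members with EZH2 in both lists were Ccl25, Ccl27a, Cxcl10, Cxcl12 and Cxcl14. Of these, Cxcl10 had narrow peaks of 146 and 148 bp that ended 24 and 22 bp before the TSS, with fold enrichments of 5.73 and 5.21, within the promoter printed above. Cxcl10 and Cxcl12 kept EZH2 in ATRXΔRBR replicate 1 and had none in replicate 2 or in either list labelled ATRX KD. Ccl25 alone had EZH2 in both ATRXΔRBR lists. EZH2 peaks in these lists were more frequent at active genes, with a peak in both WT lists at 77.3% of protein-coding genes of 50 TPM or more in WT and at 15.9% of those below 1 TPM. Among chemokine genes these counts were 1 of 5 (Cxcl12) and 2 of 25 (Ccl27a and Cxcl14).

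H3K27me3 was at the TSS of 4 and 5 members in WT, 3 and 2 in ATRXΔRBR, with 1 and 1 in the lists labelled ATRX KD. The shares of protein-coding genes were 15.6% and 16.4%, 16.2% and 14.6%, and 6.04% and 5.59%. All members with the mark had a mean below 1 TPM in WT. Ccl21a, Ccl27a, Cxcl13 and Cxcl14 had it in both WT lists, and Ccl26 and Cxcl9 had it in both ATRXΔRBR lists. At Cxcl14, a homeostatic chemokine of epithelia, peaks of 8996 and 10449 bp covered the TSS in WT, with EZH2 in both lists, and neither ATRXΔRBR list had H3K27me3 there, although EZH2 was present in ATRXΔRBR replicate 2. Cxcl14 also was the only member with H3K27me3 in the lists labelled ATRX KD, as peaks of 1354 and 407 bp in replicate 1 and 890 bp in replicate 2. At Cxcl13, the B cell attractant, the WT peaks of 10086 and 11425 bp were set against a 659 bp peak in ATRXΔRBR replicate 1 and none in replicate 2. The RNA of Cxcl13 was at 0 in every library and that of Cxcl14 at 1 estimated count in WT replicate 1 and 0 elsewhere, so no transcript was detectable in ATRXΔRBR, where a count of 0 allows up to 3 counts in a library.

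Cxcl9 ran the other way. In WT and in the lists labelled ATRX KD no H3K27me3 peak lay at its TSS, while single peaks of 12164 and 11024 bp covered the whole gene in the ATRXΔRBR lists, with fold enrichments of 4.06 and 4.05. Its RNA was at 0 in all 6 libraries. The neighbouring Cxcl10 had no H3K27me3 peak at its TSS in any list. A span of 1610 kb from 10 kb before Cxcl5 to 10 kb beyond Cxcl10 had 26.1 and 31.2 kb under H3K27me3 peaks in WT, 341 and 310 kb in ATRXΔRBR, and 0.52 and 0.74 kb in the lists labelled ATRX KD. As shares of the span these were 1.62% and 1.94%, 21.2% and 19.2%, and 0.03% and 0.05%. On chromosome 5 as a whole the cover was 5.71% and 6.44% in WT and 5.87% and 5.19% in ATRXΔRBR. How often other spans of this size differ by as much in this direction was not counted. Ccl26, a CCR3 ligand at 0 in every RNA library, had H3K27me3 at its TSS in the ATRXΔRBR lists alone, as peaks of 1391 and 793 bp inside the gene. WT replicate 2 had a 200 bp peak 3677 bp after the Ccl26 TSS.

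The family holds 5 clusters of at least 3 members in which neighbours lie within 500 kb, each taken with 10 kb on either side. On chromosome 11 these were Ccl2 to Ccl1 (290 kb) and Ccl5 to Ccl4 (159 kb), on chromosome 4 Ccl27a to Ccl21a (1025 kb), on chromosome 5 Cxcl5 to Cxcl2 (167 kb) and on chromosome 8 Ccl22 to Ccl17 (86.5 kb). H3K27me3 peaks covered 7.36% and 9.08% of the 5 clusters together in WT, 2.86% and 1.97% in ATRXΔRBR, against 0.78% and 0.55% in the lists labelled ATRX KD. Over the whole genome the mark covered 3.77% and 4.34%, 5.41% and 4.65%, and 0.23% and 0.20%, so the clusters lay above the genome in WT and below it in ATRXΔRBR. This order turned when members up to 2 Mb apart were joined, with 7.47% and 9.08% in WT and 13.4% and 11.7% in ATRXΔRBR. Joining added the span from Cxcl5 to Cxcl10 described above and merged both clusters of chromosome 11 into 1649 kb, of which 13.8% and 16.03% were covered in WT and 13.1% and 11.4% in ATRXΔRBR. Only 2 clusters carried the mark. The clusters from Ccl5, from Cxcl5 and from Ccl22 had 0 H3K27me3 peaks in all 6 lists. They hold the expressed Cxcl1, Cxcl5 and Cx3cl1 and also silent members such as Ccl3, Ccl4 and Ccl6.

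**Figure D4:**
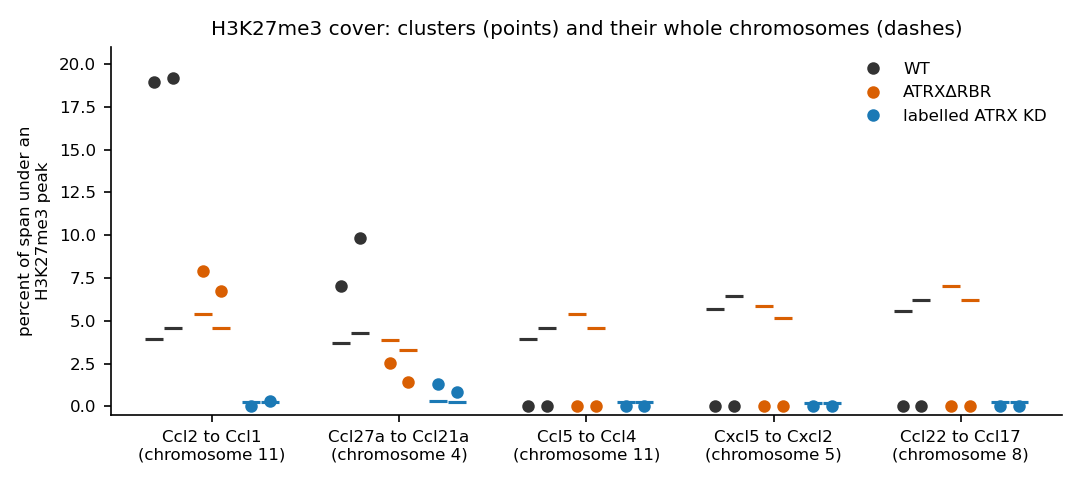
Percent of each of the 5 chemokine gene clusters (points) and of its whole chromosome (dashes) that lay under H3K27me3 peaks, for the 2 lists each of WT (black), ATRXΔRBR (orange) and the libraries labelled ATRX KD (blue). In the cluster from Ccl2 to Ccl1 the cover is 18.9% and 19.2% in WT and 7.93% and 6.73% in ATRXΔRBR, while the cover of chromosome 11 stays between 3.94% and 5.42% in these 4 lists.

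In the cluster from Ccl2 to Ccl1, cover was 18.9% and 19.2% in WT, 7.93% and 6.73% in ATRXΔRBR, against 0% and 0.33% in the lists labelled ATRX KD. At a stricter q-value limit of 0.01 it was 17.2% and 16.2% in WT and 2.93% and 3.39% in ATRXΔRBR, the latter below the 3.93% and 3.52% of chromosome 11 instead of above it. At the authors' threshold all of it lay inside the annotated Ccl1 gene (chr11:82176657-82305690), where peaks covered 54.9 and 55.7 kb in WT and 23.0 and 19.5 kb in ATRXΔRBR. The annotated span of Ccl1 is far longer than that of any other member of the cluster. The TSS used is its outermost start, and no H3K27me3 peak lay within 2 kb of it in any list. The widest peak there was 22.4 and 25.4 kb in WT and 5.60 and 8.61 kb in ATRXΔRBR. The expressed genes Ccl2 and Ccl7 at the other end of the cluster had no H3K27me3 peak within 2 kb of the TSS in any list. In the cluster on chromosome 4, cover was 7.04% and 9.86% in WT, 2.57% and 1.41% in ATRXΔRBR, against 1.31% and 0.83% in the lists labelled ATRX KD. Ccl21a and Ccl21b, and Ccl27a and Ccl27b, are near-identical copies there, and reads of such copies can be placed on either. Across 290 kb bins of the genome, both ATRXΔRBR covers lay below both WT covers in 18.6% of 9386 bins. Among the 1084 bins with at least 10% cover in both WT lists this was so in 58.9%, and in 26.5% both ATRXΔRBR covers were at most 50% of both WT covers, as they were from Ccl2 to Ccl1.

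EZH2 peaks in the clusters numbered 26 and 20 in WT, 14 and 7 in ATRXΔRBR, with 1 and 1 in the lists labelled ATRX KD. Per megabase these were 15.1 and 11.6, 8.11 and 4.05, and 0.58 in both, against 8.18 and 6.73, 8.22 and 4.18, and 1.95 and 2.58 over the genome. The cluster on chromosome 4 held 15 and 13 of the WT peaks and 5 and 4 of those in ATRXΔRBR.

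ATRX peaks were dense in these clusters. There were 18 and 11 in WT and 13 and 15 in ATRXΔRBR, or 10.4 and 6.37, and 7.53 and 8.69, per megabase, against 3.34 and 1.74, and 2.29 and 1.75, over the genome. In none of the 4 lists did the cluster on chromosome 4 hold an ATRX peak. The cluster from Cxcl5 held 6 and 4 in WT and 5 and 6 in ATRXΔRBR, which is 36.0 and 24.0, and 30.02 and 36.0, per megabase on a chromosome with 2.48 to 4.54. Replicates of a state differed by as much as the states did. How often other spans of the genome are as dense in ATRX peaks was not counted.

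Places with an ATRX peak in all 4 lists numbered 1365 in the genome, or 0.50 per megabase, and 7 of them lay in the clusters, or 4.05 per megabase. Relative to the nearest chemokine TSS, their centres were 2.46 and 0.67 kb before Ccl2, 4.37 kb before Ccl5, 2.38 kb before Ccl9, 14.65 and 10.6 kb before Cxcl1 and 1.35 kb after the Cxcl5 TSS. EZH2 peaks overlapped 3 of the 7, in all 4 lists of WT and ATRXΔRBR before Ccl5, in 3 of them 2.46 kb before Ccl2 and in replicate 1 of both states 14.65 kb before Cxcl1. No H3K27me3 peak overlapped any of the 7, and no EZH2 peak labelled ATRX KD did. How many of the 1365 places overlap such peaks was not counted. These overlaps are thus a description and not a result about the clusters. No peak list of the 4 IgG control libraries was among the data used here, so a place that is cut without regard to the antibody was not tested for.

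**Figure D5:**
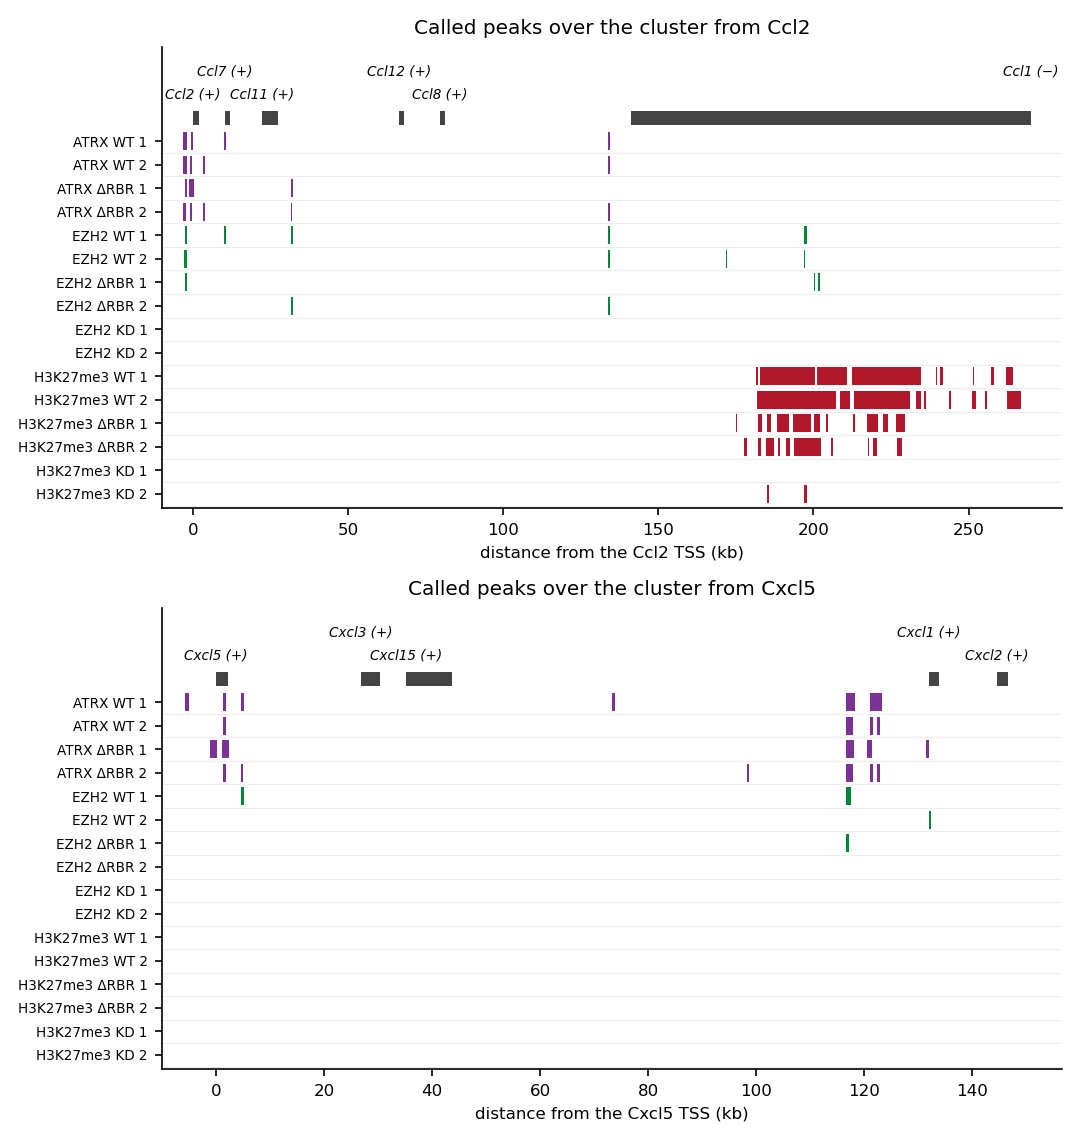
Called peaks of ATRX (purple), EZH2 (green) and H3K27me3 (red) in the 16 lists, over the cluster from Ccl2 to Ccl1 (top, distance from the Ccl2 TSS in kb) and from Cxcl5 to Cxcl2 (bottom, distance from the Cxcl5 TSS in kb), with chemokine genes as dark boxes and their strand. At the top, ATRX recurs in all 4 lists at the left, near Ccl2, and all H3K27me3 lies over the annotated Ccl1. At the bottom, ATRX recurs at Cxcl5 and upstream of Cxcl1, with no H3K27me3.

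The central 300 bases of 3 of these places are shown as examples, 1 each upstream of Ccl2, Ccl5 and Cxcl1 and outside any UTR. Each of the 3 held a kappaB-like or AP-1 match, so they do not stand for all 7. The place before Ccl9, not shown, also held an AP-1 match, while the other places before Ccl2 and Cxcl1 and the place in Cxcl5 held neither motif. The 3 windows are given 5′ to 3′ on the plus strand of GRCm38, with matches to the motifs named above in capitals. The place before Ccl2 is chr11:82032962-82033261, in the span of Gm17268, that before Ccl5 is chr11:83534739-83535038 and that before Cxcl1 is chr5:90880473-90880772, both between genes.
Ccl2 upstream: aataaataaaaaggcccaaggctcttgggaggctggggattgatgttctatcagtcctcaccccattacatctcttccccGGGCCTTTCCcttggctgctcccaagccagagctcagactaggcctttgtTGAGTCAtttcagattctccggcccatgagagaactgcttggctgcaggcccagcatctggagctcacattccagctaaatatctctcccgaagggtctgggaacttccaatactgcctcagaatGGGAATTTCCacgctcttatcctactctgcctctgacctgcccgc
Ccl5 upstream: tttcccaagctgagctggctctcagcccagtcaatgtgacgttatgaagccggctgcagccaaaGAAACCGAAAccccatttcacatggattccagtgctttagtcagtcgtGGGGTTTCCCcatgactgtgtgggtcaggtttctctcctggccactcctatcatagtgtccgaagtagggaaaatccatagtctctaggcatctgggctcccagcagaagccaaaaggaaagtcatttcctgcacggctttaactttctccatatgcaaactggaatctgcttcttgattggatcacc
Cxcl1 upstream: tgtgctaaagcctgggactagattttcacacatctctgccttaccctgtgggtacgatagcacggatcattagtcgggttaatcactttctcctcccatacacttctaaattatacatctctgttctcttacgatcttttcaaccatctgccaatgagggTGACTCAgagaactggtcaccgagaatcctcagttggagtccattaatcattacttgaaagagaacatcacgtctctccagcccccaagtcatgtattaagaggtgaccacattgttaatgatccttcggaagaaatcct
The window before Ccl2 held 2 kappaB-like matches and 1 AP-1 match, that before Ccl5 held 1 kappaB-like and 1 interferon-response-like match, and that before Cxcl1 held 1 AP-1 match. Over all 7 places, the AP-1 motif was in 3 and the kappaB-like motif in 2. In windows of the same length on all 1365 places of the genome, the AP-1 motif was in 51.1% and the kappaB-like motif in 8.21%, against 7.93% and 4.71% of promoters.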

How the data were processed

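RNA-Seq (6 libraries) and CUT&RUN (16 peak lists) of mouse embryonic fibroblasts were used as deposited. Per the study's methods, the authors aligned RNA reads with STAR and quantified them with RSEM, and the estimated counts, TPM and FPKM of each gene were deposited per library. FPKM as deposited was not used. The RNA kit is directional per the labels, and the strand setting of the counting is not given in the sources used here. CUT&RUN reads were aligned to mm10 with Bowtie2 and the authors ran MACS2 on every library separately in broad mode with a cutoff of 0.1. The deposited lists give fold enrichment, −log10 p and −log10 q for each peak, and a score, which was not used. Depth cannot be read from them. The 4 IgG libraries were not analysed, as no peak list of them was among the data used here.

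Estimated counts were rounded to whole numbers. For each state against WT, a gene entered the fit when its summed count in the 4 libraries exceeded 10. The quasi-likelihood test of edgeR (version 4.0.16, R 4.3.3, TMM scaling) was applied, with Benjamini-Hochberg adjustment over all genes tested and a threshold of 0.05. DESeq2 1.42.0 was an alternative. The edgeR fit and the counting of overlaps were tested on simulated data. The edgeR test gives no SE, so each SE is the size of the log2 fold change over the square root of the F statistic. Library totals ran from 9051693 to 21723647 estimated counts, and floors cover counting error only. Of 53801 gene identifiers, 53620 were found in GENCODE M21. A TSS was the outermost start of a gene, with 2 kb on each side, and any overlap with a peak counted. Clusters held at least 3 members with gaps of at most 500 kb, with a margin of 10 kb. Peaks were compared as counts and covered bases, with no test. Python 3.11.15 with pandas 2.3.3, numpy 2.4.6 and matplotlib 3.10.9 was used.

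Members with a mean of at least 1 TPM in a state, members called, members with a peak at the TSS and up to 6 genes of each related list by smallest adjusted p were named. Ppbp and Pf4 were named as neighbours. The members and lists were chosen with earlier results of these data known.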

Additional observations from a re-analysis of the deposited data

How the results depend on the processing

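The direction of the median log2 fold change of the chemokine genes was below 0 in both comparisons under every setting run. In ATRXΔRBR, 1 member was called in the reported fit, 2 with DESeq2, 2 with no filter on low counts and 4 with all 6 libraries in one fit. Leaving out a library gave 0 to 2 calls, with 0 without WT replicate 2 and 2 without WT replicate 1, and medians from -0.60 to -0.38. There were 9 members called in the libraries labelled ATRX KD and 7 to 9 when a library was left out, with Ccl5 and Ccl9 lost without replicate 2 labelled ATRX KD. Ccl25 was called higher there without WT replicate 2 (log2 fold change 0.47, adjusted p = 0.00966 by edgeR). The median of -1.78 became -2.18 with no filter, where the median of all genes also moved to -0.13, and -1.39 from TPM with a pseudocount of 1. Of the related lists, 5 genes were called in ATRXΔRBR, 10 with no filter, 3 with at least 10 counts in every library, 10 with all 6 libraries, 2 with a log2 fold change of at least 1, and 3 to 5 when a library was left out. These were 29 in the libraries labelled ATRX KD, 15 with a log2 fold change of at least 1, and 17 to 39 when a library was left out, the lowest without replicate 2 labelled ATRX KD. The cause of these differences was not tested.

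The replicate numbers were not shown to pair the libraries. Over 13288 genes, deviations from the group means of same-numbered libraries correlated at -0.58 between WT and ATRXΔRBR. The values were -0.09 between WT and ATRX KD and 0.11 between ATRXΔRBR and ATRX KD. With 2 libraries in a state the deviations mirror each other, so opposite-numbered libraries correlate at the same size with the sign turned. WT and ATRXΔRBR libraries of opposite number thus shared part of their deviation, which the reported fit does not model. The source of this was not tested. With the replicate block, 1 chemokine gene was called in ATRXΔRBR (median -0.47) and 9 in the libraries labelled ATRX KD, and 3 and 30 genes of the related lists. A crossed replicate block, added after the data were seen, called 8 chemokine genes, 19 genes of the related lists and 5585 genes in all in ATRXΔRBR.

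Peak counts are means over the 2 lists of a state. At a q-value of 0.01 or less, ATRX was at 2.5 chemokine TSS in WT and 1.5 in ATRXΔRBR, H3K27me3 at 0.5 in ATRX KD, and the clusters held 7.5 ATRX peaks in ATRXΔRBR and 14.5 EZH2 peaks in WT, with H3K27me3 cover of 6.54% in WT, 1.26% in ATRXΔRBR and 0.18% in ATRX KD. With a gap of 2 Mb the clusters held 27.5 and 26 ATRX peaks in WT and ATRXΔRBR, 60.5, 41.5 and 7.5 EZH2 peaks in WT, ATRXΔRBR and ATRX KD, and H3K27me3 cover of 12.5% in ATRXΔRBR and 0.41% in ATRX KD, since more members and more sequence were joined. Counting only peak midpoints left 1.5 TSS with H3K27me3 in ATRXΔRBR. Single lists ranged from 2 to 6 TSS with ATRX in WT, and with EZH2 from 2 to 5 in ATRXΔRBR and 0 to 2 in ATRX KD.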

Other observations

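The matched chemokine promoters, which leave out those of Ccl2, Ccl7 and Cxcl5, were poor in CpG. In the 27 promoters matched, the median ratio of observed to expected CpG was 0.27, against 0.39 over all promoters of the table, and 5 of 27 (18.5%) reached a ratio of 0.6, where 36.5% of all promoters did. Those of Cxcl12 (0.64), Cx3cl1 (0.62), Cxcl14 (0.77) and Ccl25 (1.28) were among the 5.

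Chemokine TSS lay closer to ATRX peaks than other protein-coding TSS did by the median distance, at 22.03 and 33.6 kb in WT and 32.8 and 30.5 kb in ATRXΔRBR, against 81.3 and 173.7 kb and 98.7 and 177.9 kb. For EZH2 in WT the order was the other way, with 14.3 and 12.6 kb against 1.53 and 5.18 kb. Members of a cluster share peaks, so these distances are a description and were not tested.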
